A study of Mus musculus with 6 samples.

Results

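The forkhead (Fox) and Sox transcription factor genes were examined in neurospheres overexpressing Bmi1. Members were taken by gene symbol: every probe set that the array annotation assigns to 1 gene only, named Fox plus a letter and a number or Sox plus a number, with Sox1, Sox2, Sox9 and Sox10 left out. This gave 58 genes, 43 forkhead and 15 Sox genes, of the 19938 genes with a probe set of their own. They were read by 60 probe sets of 35557, since Foxf1 and Foxn3 have 2 each, and the probe set with the highest mean over the 6 arrays stood for its gene.

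Neurospheres are clusters of neural stem and progenitor cells with their progeny, grown in suspension. These came from CD1 mice, an outbred strain, aged 4 to 6 weeks, and from the wall of the lateral ventricle. The 3 Bmi1 overexpression samples carried the pCMMP-Bmi1 retroviral vector and the 3 empty vector control samples the same vector without Bmi1. Both vectors also express eGFP, on which cells of both groups were sorted before culture at clonal density (2000 cells per well). A retroviral vector inserts at sites that differ between cells and drives Bmi1 from its own promoter, not from that of the gene. The cultures of a group are described as independent, and the labels do not say whether they came from different mice, so that p-values cover the spread between these samples. The labels name Bmi1 without a tag, whereas the text of the study speaks of Bmi1-FLAG. For each of the 6 arrays the source name gives the other group, and the groups were taken from the title, transduction and genotype fields, which name the same group as each other.

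Forkhead proteins bind DNA through a winged-helix domain, and Sox proteins through an HMG box that bends DNA, usually together with a partner factor. Both families set cell identity in development. In neural tissue the SoxB1 proteins hold the progenitor state, SoxC proteins turn on neuronal genes, SoxD and SoxE proteins act in glia, and the forkhead families contribute motile cilia (FoxJ) and stem cell quiescence (FoxO). BMI-1 is a subunit of Polycomb repressive complex 1, and many developmental Fox and Sox genes are known Polycomb targets in embryonic stem cells.

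Each value is an RMA value, the log2 signal of a probe set after background correction and normalization between arrays. A difference is Bmi1 overexpression minus empty vector, so that 1 on this scale is a doubling. Array medians lay between 4.37 and 4.45, and correlations across probe sets were 0.991 to 0.993 within and 0.985 to 0.987 between groups. Bmi1 itself (probe set 10469514) read 9.18, 8.36 and 8.42 in Bmi1 overexpression arrays and 7.70, 8.40 and 8.31 in empty vector arrays, and the groups overlapped. Cdkn2a, a known BMI-1 target, was lower by 1.08 in the arrays titled Bmi1 overexpression (adjusted p = 0.0012 from limma). Epha7 read 3.26, 3.25 and 3.23 in Bmi1 overexpression arrays and 7.12, 7.16 and 6.93 in empty vector arrays (adjusted p = 1.1e-04 from limma). Of 9 measured neural stem and progenitor markers, 2 (Prom1 and Hes5) rose, 0 fell and 7 did not pass. Their median difference was 0.01. At an unadjusted p under 0.05 in limma, 4 were higher and 2 lower, Hes1 (-0.28) and Slc1a3 (-0.31). Of 8 astrocyte markers, 3 (Kcnj10, Gja1 and Aqp4) rose, 0 fell and 5 did not pass, and the median was 0.34. At that unadjusted p, 4 were higher and 2 lower, Aldoc (-0.28) and S100b (-0.38). Of all 19938 genes, 2148 were higher and 2378 lower at it. The astrocyte markers averaged 7.60 to 7.81 in Bmi1 overexpression arrays and 7.17 to 7.33 in empty vector arrays, and their part in the values of the members was not tested. All 9 stem and progenitor markers lay above 3.65, the value under which 95% of 1205 probe sets for olfactory and vomeronasal receptors fell, as against 3 of 7 microglial, 7 of 10 endothelial and 8 of 13 mesenchymal markers. Epha7 in the Bmi1 overexpression arrays lay under that value, so that its difference is given as a bound, at least 3.42 lower on the log2 scale. Of the 58 members, 48 lay above that value.

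Most forkhead and Sox genes differed little between the groups. In RNA of a whole culture, fewer cells of a type and less RNA per cell cannot be told apart. Foxp1 rose, Sox11 fell, and 56 members did not pass the test (adjusted p under 0.05 from limma, over all probe sets). That is 1 of 58 higher and 1 of 58 lower, against a background of 2.98% of all 19938 genes that rose and 4.37% that fell. No member differed by more than 0.48 on the log2 scale in either direction, whereas 6.23% of all genes differed by more than 0.5. The median difference was 0.03 for the members and 0.01 for all genes, and the median size of a difference, regardless of sign, was 0.11 for both. For 56 of 58 members the 95% confidence interval of the difference lay inside a 1.5-fold change in either direction, as it did for 85.3% of all genes. The exceptions were Foxo1 (-0.74 to -0.22) and Foxc1 (-0.79 to 0.02). Among the 56 are all 10 members with a mean under the 3.65 of the receptor probe sets. The arrays give little information on those 10, whatever their intervals.

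**Figure D1:**
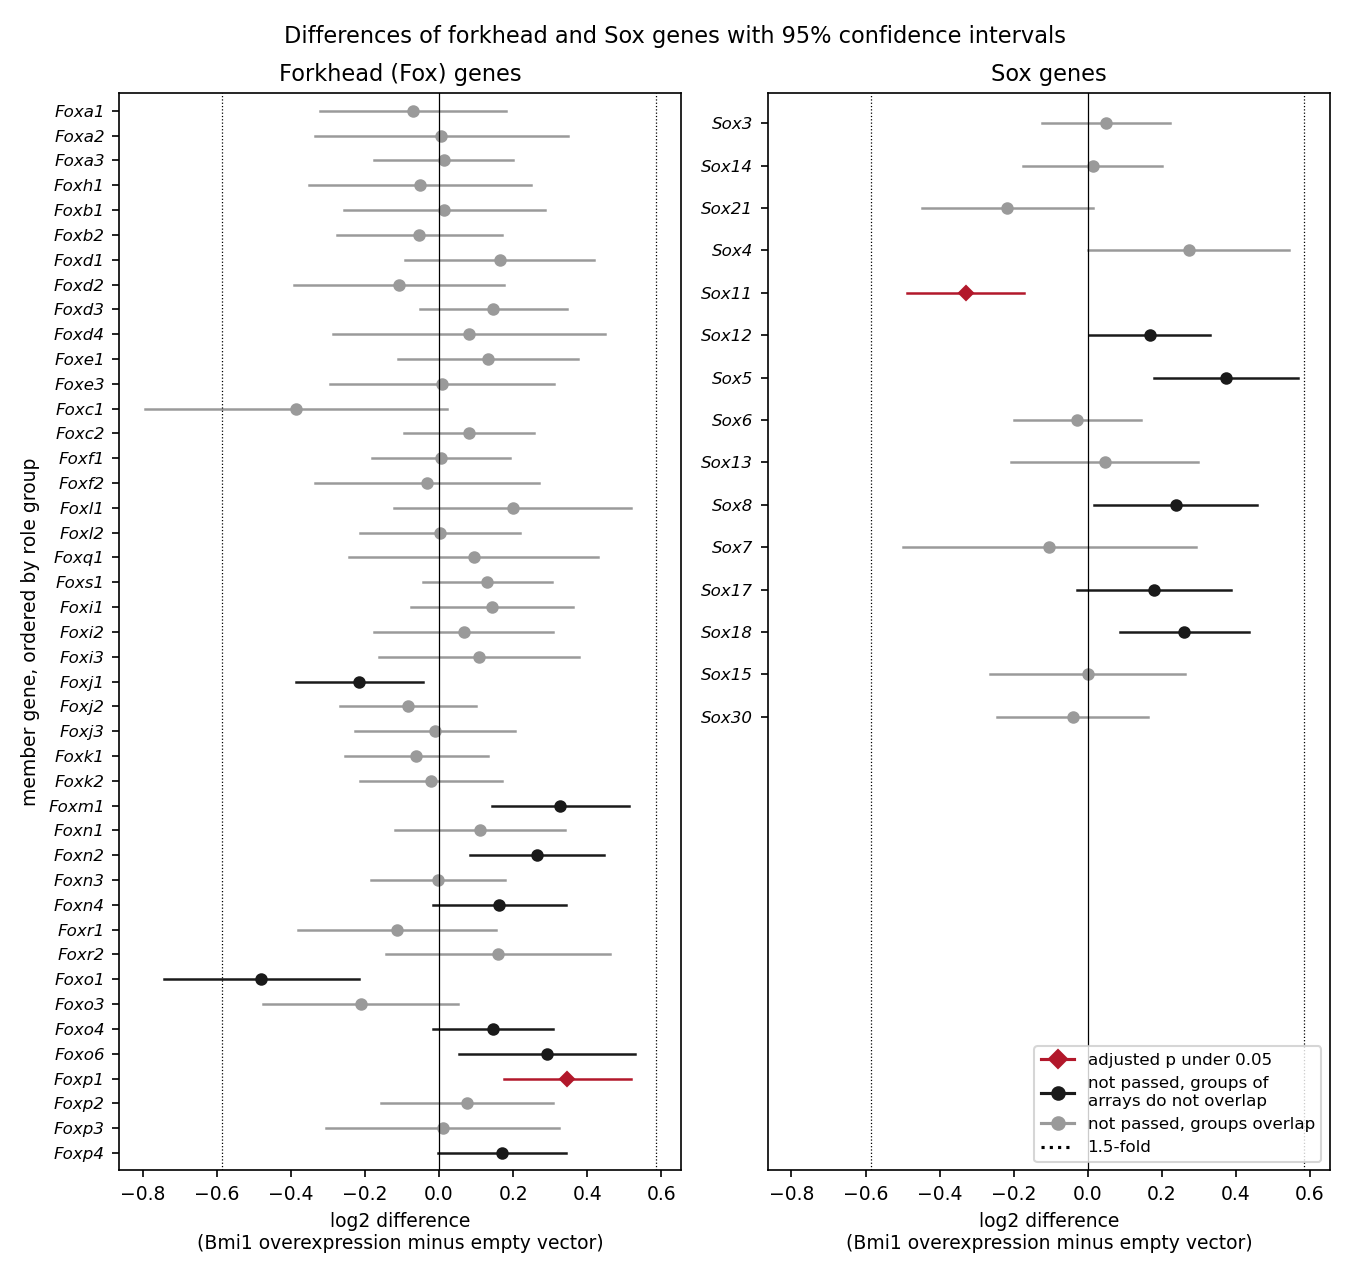
Log2 difference (x axis) of each of the 43 forkhead and 15 Sox genes (y axis), Bmi1 overexpression minus empty vector, with its 95% confidence interval from limma and 3 arrays per group. Red diamonds mark Foxp1 (0.35) and Sox11 (-0.33), the members past the test, black points members whose groups of arrays do not overlap, grey points the rest, and dotted lines a 1.5-fold change.

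Foxp1 encodes a transcriptional repressor used in striatal and motor neurons. Its probe set (10546661) read 5.61, 5.69 and 5.58 in Bmi1 overexpression arrays and 5.29, 5.21 and 5.34 in empty vector arrays. Every Bmi1 overexpression array lay above every empty vector array. The means were 5.63 ± 0.06 and 5.28 ± 0.06 (SD, n = 3 each), a difference of 0.35 (standard error 0.07, 1.27-fold, adjusted p = 0.045 from limma). Leaving out any of the 6 arrays ended the call, with adjusted p-values of 0.089 to 0.15 in limma. So did centring the arrays on their medians (adjusted p = 0.082 from limma) and quantile normalization (adjusted p = 0.059 from limma).

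The other FoxP repressor genes did not pass. Foxp4 read 5.53, 5.37 and 5.50 in Bmi1 overexpression arrays and 5.32, 5.28 and 5.30 in empty vector arrays, without overlap and with a difference of 0.17 (adjusted p = 0.26 from limma). Foxp2, a factor of cortical and basal ganglia circuits, and Foxp3, the factor of regulatory T cells, had differences of 0.08 and 0.01 with overlapping groups. The mean of Foxp2, 3.32, lay within the range of the receptor probe sets.

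Sox11, a SoxC factor that turns on genes of newborn neurons, was the Sox gene past the test. Its probe set (10399725) read 8.79, 8.80 and 8.77 in Bmi1 overexpression arrays and 9.13, 9.05 and 9.17 in empty vector arrays. The Bmi1 overexpression arrays lay close together and below all empty vector arrays. The means were 8.79 ± 0.01 and 9.12 ± 0.06 (SD, n = 3 each), a difference of -0.33 (standard error 0.07, 1.26-fold, adjusted p = 0.041 from limma). This call, too, ended once any of the 6 arrays was omitted, with adjusted p-values of 0.084 to 0.13 in limma, and after quantile normalization (adjusted p = 0.060 from limma).

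The related SoxC genes did not pass. Sox4 read 9.41, 9.58 and 9.80 in Bmi1 overexpression arrays and 9.31, 9.25 and 9.42 in empty vector arrays, a difference of 0.27 (95% confidence interval 0.00 to 0.54, adjusted p = 0.25 from limma) with 1 empty vector array just above the lowest Bmi1 overexpression array. Sox12 read 6.15, 6.21 and 6.22 in Bmi1 overexpression arrays and 6.04, 5.96 and 6.08 in empty vector arrays, with a difference of 0.17 (adjusted p = 0.24 from limma). Sox11 thus had a negative difference and its paralogs positive ones, and for Sox12 the groups did not overlap. Of 7 listed neuronal targets of SoxC factors, 2 rose, 2 fell and 3 did not pass, with a median difference of 0.07. The largest positive difference, 0.89 for Tubb3, did not pass (adjusted p = 0.094 from limma). Stmn1, a microtubule regulator, rose by 0.41 and the dendritic protein gene Map2 fell by 0.47. Dcx, the microtubule protein of migrating neuroblasts, was past the test with 3.58, 3.52 and 3.46 in Bmi1 overexpression arrays and 3.07, 2.90 and 2.96 in empty vector arrays, all within the range of the receptor probe sets. The neurogenic factor gene Neurod1 lay in that range in all 3 Bmi1 overexpression arrays and was lower there by at least 0.48, against the 3.65 that bounds the range. Dcx, Map2 and Tubb3 are also among 8 listed neuron and neuroblast markers, so that the counts of these lists are not independent. Of the 8 markers, 2 rose (Elavl3 and Dcx) and 1 fell (Map2), and the median difference was -0.10. Within the range of the receptor probe sets lay 2 of them, Dcx included. The 8 markers averaged 5.34 to 5.49 in Bmi1 overexpression arrays and 5.21 to 5.27 in empty vector arrays. Their part in the values of the SoxC genes was not tested.

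The promoters of the called genes are shown because Polycomb complexes are known to gather at promoters rich in CG dinucleotides. The sequences are the 250 bases before each annotated transcription start in RefSeq (GRCm38.p6), 5′ to 3′ on the gene's strand, with CG dinucleotides in capitals. Sox11 has 1 start in the table and Foxp1 has 3, and the array value does not tell which of them the RNA came from.
Sox11, chr12:27342719-27342968, minus strand: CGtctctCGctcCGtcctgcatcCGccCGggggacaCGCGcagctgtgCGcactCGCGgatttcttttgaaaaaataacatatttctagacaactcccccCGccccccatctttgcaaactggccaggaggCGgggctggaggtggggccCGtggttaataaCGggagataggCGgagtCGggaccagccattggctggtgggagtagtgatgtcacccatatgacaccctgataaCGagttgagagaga
Foxp1, outermost start, chr6:99520994-99521243, minus strand: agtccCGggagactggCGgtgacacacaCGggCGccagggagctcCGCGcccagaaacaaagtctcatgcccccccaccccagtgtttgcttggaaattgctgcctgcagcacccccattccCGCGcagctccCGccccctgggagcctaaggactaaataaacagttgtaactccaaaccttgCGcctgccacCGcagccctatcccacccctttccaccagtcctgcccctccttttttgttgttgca
Foxp1, middle start, chr6:99266516-99266765, minus strand: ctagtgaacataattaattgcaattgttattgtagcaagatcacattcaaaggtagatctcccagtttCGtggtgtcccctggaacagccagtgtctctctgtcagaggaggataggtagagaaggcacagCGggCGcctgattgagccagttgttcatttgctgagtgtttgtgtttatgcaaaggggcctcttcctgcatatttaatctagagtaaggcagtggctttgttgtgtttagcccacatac
Foxp1, innermost start, chr6:99028299-99028548, minus strand: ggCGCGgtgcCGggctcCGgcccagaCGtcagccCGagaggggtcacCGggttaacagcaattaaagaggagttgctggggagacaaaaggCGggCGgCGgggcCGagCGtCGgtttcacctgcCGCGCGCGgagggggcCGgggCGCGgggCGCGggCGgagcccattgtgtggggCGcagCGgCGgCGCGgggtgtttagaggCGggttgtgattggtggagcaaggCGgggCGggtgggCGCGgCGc

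The Sox11 window holds 17 CG dinucleotides, and the 3 Foxp1 windows hold 11, 3 and 34 in the order printed. Over 49 windows of the 39 members found in the promoter table the median was 15, against 6 over all 32851 windows. At least 10 were present in 63.3% of the members' windows and in 37.8% of all windows.

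With the threshold at an adjusted p under 0.1, chosen after these values were seen, 5 of 58 members passed, against 11.5% of all genes. The added members were Foxo1, Sox5 and Foxm1. Without any requirement on p, all 3 Bmi1 overexpression arrays lay above all 3 empty vector arrays for 12 of 58 members, against 15.3% of all genes, and below them for 3, against 15.9%. For a single gene, the exact permutation test over 3 arrays against 3 cannot give a two-sided p below 0.1.

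**Figure D2:**
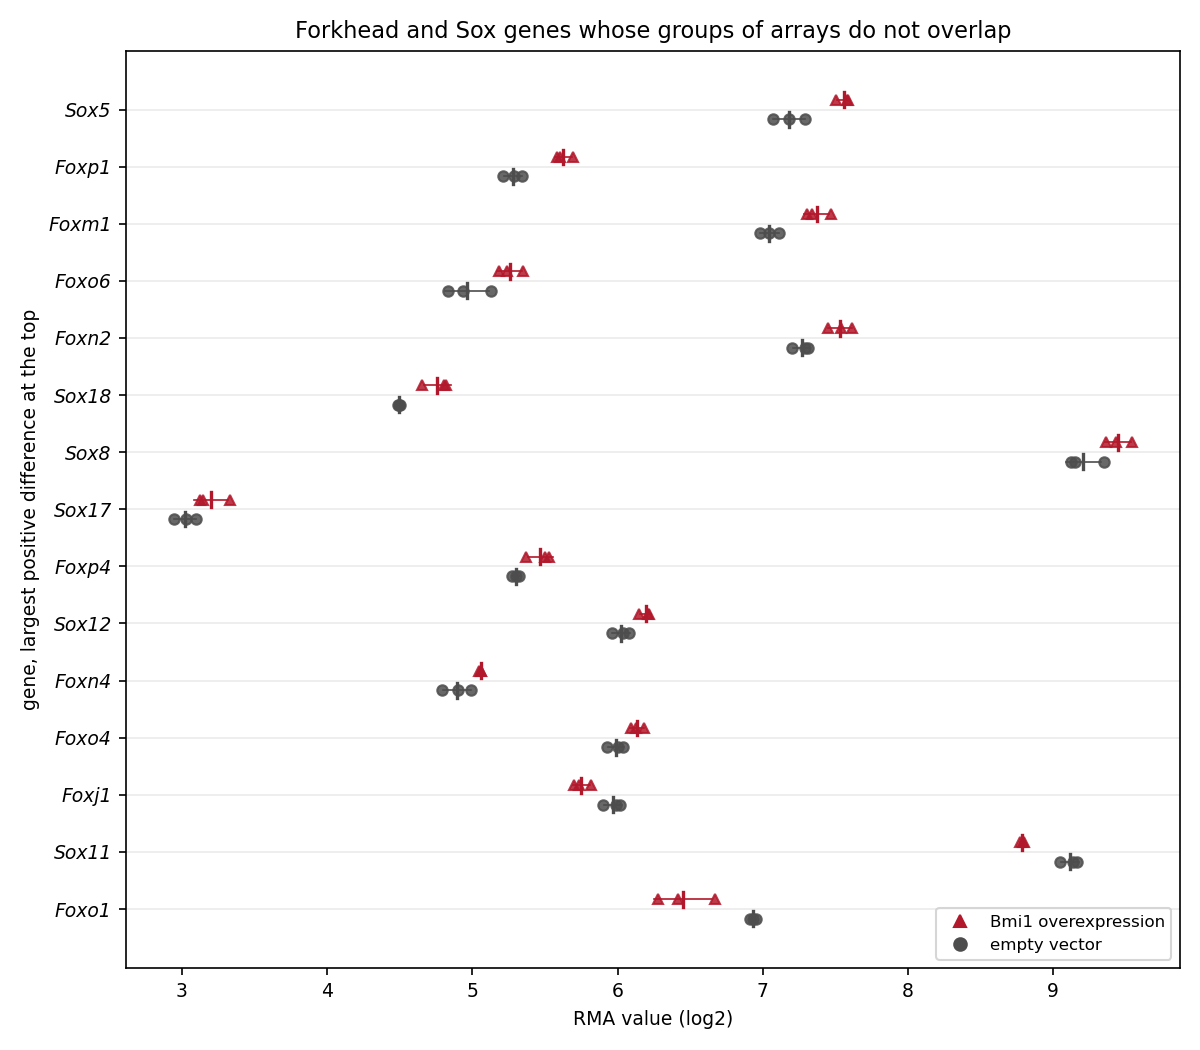
RMA values (x axis, log2) of 15 members whose groups do not overlap (y axis), with 1 point per array, red triangles for Bmi1 overexpression above grey circles for empty vector, vertical ticks for the mean and horizontal lines for the SD of 3 arrays. Foxo1, Sox11 and Foxj1 lie lower in Bmi1 overexpression arrays and the other 12 genes higher, by at most 0.37.

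The FoxO genes encode factors that insulin and PI3K signalling keep out of the nucleus, and they preserve adult neural stem cells. Foxo1 had the largest difference of any member. It read 6.42, 6.67 and 6.28 in Bmi1 overexpression arrays and 6.91, 6.93 and 6.96 in empty vector arrays. The empty vector arrays lay close together and the Bmi1 overexpression arrays spread below them, with means of 6.45 ± 0.20 and 6.93 ± 0.02 (SD, n = 3 each). The difference was -0.48 (standard error 0.11, 1.39-fold, adjusted p = 0.062 from limma). Of 17 alternatives at the same threshold, Foxo1 passed in 8. Among these were centring on array medians (adjusted p = 0.046 from limma) and omission of Bmi1 overexpression replicate 2 (adjusted p = 0.031 from limma). It did not pass without any other array, after quantile normalization or with the methods' t-test.

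Foxo3 read 7.31, 7.51 and 7.70 in Bmi1 overexpression arrays and 7.74, 7.73 and 7.69 in empty vector arrays, a difference of -0.21 (adjusted p = 0.36 from limma) with overlapping groups. The remaining FoxO genes had positive differences. Foxo4 read 6.09, 6.18 and 6.13 in Bmi1 overexpression arrays and 6.04, 5.93 and 6.00 in empty vector arrays. Foxo6, which is expressed mainly in brain, read 5.35, 5.24 and 5.18 in Bmi1 overexpression arrays and 4.83, 5.13 and 4.94 in empty vector arrays. Their differences were 0.15 and 0.29 (adjusted p = 0.30 and 0.17 from limma), and the groups overlapped for neither. Of 17 listed FoxO target genes, Bcl6, a transcriptional repressor, fell by 0.36 and 16 did not pass, with a median difference of -0.13. At an unadjusted p under 0.05 in limma, 4 of the 17 were higher and 4 lower. Of all 19938 genes, 2148 were higher and 2378 lower at it. The largest difference among the targets was positive, 0.86 for Txnip, and did not pass (adjusted p = 0.097 from limma). Of 10 genes of the PI3K pathway upstream of FoxO, the receptor gene Igf1r fell by 0.38 and 9 did not pass. Over all 19938 genes, 4.37% fell. The largest difference in this list was positive, 0.48 for Pik3cb, and did not pass (adjusted p = 0.074 from limma). At the unadjusted p under 0.05, 1 of the 10 was higher and 2 were lower. How far either list bears on the FoxO genes was not tested.

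Foxm1 activates genes of mitosis. It read 7.34, 7.47 and 7.31 in Bmi1 overexpression arrays and 7.04, 6.98 and 7.11 in empty vector arrays, without overlap. The means were 7.37 ± 0.09 and 7.04 ± 0.06 (SD, n = 3 each), a difference of 0.33 (standard error 0.08, 1.26-fold, adjusted p = 0.067 from limma). Of 11 measured Foxm1 targets, 3 rose, none fell and 8 did not pass, with a median difference of 0.28. Over all 19938 genes, 2.98% rose and 4.37% fell. The mitotic kinase genes Plk1 and Aurkb rose by 0.43 and 0.44 and the phosphatase gene Cdc25b by 0.45 (adjusted p = 0.017, 0.034 and 0.030 from limma). How far the values of these targets are tied to Foxm1 was not tested.

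Of the FoxN genes, Foxn2 read 7.54, 7.61 and 7.45 in Bmi1 overexpression arrays and 7.31, 7.20 and 7.29 in empty vector arrays. This difference of 0.27 did not pass (adjusted p = 0.11 from limma), although the groups did not overlap. Foxn4, a factor of retinal progenitors and spinal interneurons, read 5.06, 5.04 and 5.06 in Bmi1 overexpression arrays and 4.99, 4.90 and 4.79 in empty vector arrays (difference 0.16, adjusted p = 0.29 from limma). Foxn3, a repressor linked to the DNA damage checkpoint, had differences of 0.00 in both of its probe sets. Foxk1 and Foxk2, repressors of starvation and autophagy genes, had differences of -0.06 and -0.02. The interval of Foxk2 was -0.21 to 0.17. Foxn1, a thymus factor, and Foxr1 and Foxr2 had differences of 0.11, -0.11 and 0.16 with overlapping groups.

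Foxj1 is the master factor of motile cilia and of ependymal cells, which line the ventricle from which the cultures were taken. It read 5.70, 5.82 and 5.73 in Bmi1 overexpression arrays and 6.01, 5.99 and 5.90 in empty vector arrays. The groups did not overlap, and the difference of -0.22 (95% confidence interval -0.39 to -0.04) did not pass (adjusted p = 0.16 from limma). Of 18 genes of the motile cilia programme 0 passed in limma, and 7 lay within the range of the receptor probe sets. Their median difference was -0.04. An unadjusted p under 0.05 in limma was found for 2 of the 18, both lower in Bmi1 overexpression. Over all 19938 genes it was found for 2378 lower and 2148 higher. The interval of Foxj2, -0.27 to 0.10, and that of Foxj3, -0.23 to 0.21, both held 0. Foxi1, Foxi2 and Foxi3, factors of ion-transporting epithelia and placodes, had differences of 0.07 to 0.14.

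Among the SoxD genes, Sox5 lay just outside the threshold. Sox5 and Sox6 lack an activation domain of their own and hold back terminal differentiation of oligodendrocyte precursors. Sox5 read 7.51, 7.59 and 7.58 in Bmi1 overexpression arrays and 7.18, 7.07 and 7.29 in empty vector arrays. The means were 7.56 ± 0.05 and 7.18 ± 0.11 (SD, n = 3 each), a difference of 0.37 (standard error 0.08, 1.30-fold, adjusted p = 0.051 from limma). Sox6, its closest paralog, read 7.40, 7.44 and 7.41 in Bmi1 overexpression arrays and 7.46, 7.35 and 7.52 in empty vector arrays, a difference of -0.03 (95% confidence interval -0.20 to 0.14). Sox13 had a difference of 0.05.

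Sox8, the SoxE gene among the members, acts with its relatives in oligodendrocytes and neural crest. It read 9.43, 9.37 and 9.54 in Bmi1 overexpression arrays and 9.35, 9.13 and 9.15 in empty vector arrays, a difference of 0.24 (adjusted p = 0.22 from limma). The groups did not overlap, though 1 empty vector array lay just under the lowest Bmi1 overexpression array. Of 15 measured oligodendrocyte partners and targets of SoxD and SoxE factors, 5 rose, 2 fell and 8 did not pass, with a median difference of 0.26. Nkx2-2 and Myt1, factors of oligodendrocyte precursors, rose by 1.82 and 1.58, whereas Ugt8a, an enzyme of myelin lipid synthesis, and Bcas1 had differences of -1.53 and -1.32. The other genes of myelin or its regulation in the list, Cnp, Myrf, Mbp, Mag and Mog, did not pass. Their differences were 0.45, 0.26, 0.16, 0.14 and 0.09. The mean over this list was 6.25 to 6.34 in Bmi1 overexpression arrays and 5.96 to 6.02 in empty vector arrays. How far it bears on Sox5 and Sox8 was not tested. Of 7 measured neural crest and Schwann cell markers 0 passed in limma, and 2 had an unadjusted p under 0.05, both lower in Bmi1 overexpression. One of them, Ets1, lay just outside the threshold, with a difference of -0.40 (adjusted p = 0.05003 from limma). Of all 19938 genes, 2378 were lower at that unadjusted p.

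Of the 3 SoxB genes 0 passed in limma, and 0 had an unadjusted p under 0.05. Sox3, a SoxB1 factor of neural progenitors, read 8.40, 8.55 and 8.43 in Bmi1 overexpression arrays and 8.42, 8.37 and 8.44 in empty vector arrays, a difference of 0.05 with an interval of -0.12 to 0.22. Sox21, which counteracts SoxB1 factors, read 7.66, 7.61 and 7.80 in Bmi1 overexpression arrays and 8.04, 7.78 and 7.90 in empty vector arrays. Its groups overlapped, and its difference was -0.22 (adjusted p = 0.28 from limma). Sox14, a factor of interneurons, had a difference of 0.01.

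SoxF factors specify endothelium, and Sox17 also endoderm. Sox18 read 4.80, 4.82 and 4.65 in Bmi1 overexpression arrays and 4.50, 4.51 and 4.49 in empty vector arrays, without overlap (difference 0.26, 95% confidence interval 0.09 to 0.44, adjusted p = 0.11 from limma). Sox17 read 3.33, 3.15 and 3.12 in Bmi1 overexpression arrays and 2.95, 3.09 and 3.03 in empty vector arrays, all under the 3.65 of the receptor probe sets. Sox7 had a difference of -0.10 with overlapping groups. Of 10 endothelial markers 0 passed in limma and 1 had an unadjusted p under 0.05, higher in Bmi1 overexpression. Of all 19938 genes, 2148 were higher at that unadjusted p. The mean of the endothelial markers was 4.03 to 4.04 in Bmi1 overexpression arrays and 3.91 to 3.98 in empty vector arrays. Its part in the values of Sox17 and Sox18 was not tested. Sox15 and Sox30, a testis factor, had differences of 0.00 and -0.04.

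The forkhead genes of mesenchyme, early ectoderm and endoderm held no call in limma, no unadjusted p under 0.05 and no member without overlap. Of the mesenchymal FoxC, FoxF, FoxL, FoxQ and FoxS genes, Foxc1, which is needed for meninges and vessels, had the largest difference. It read 5.02, 5.64 and 5.34 in Bmi1 overexpression arrays and 5.88, 5.67 and 5.60 in empty vector arrays. The spread between the Bmi1 overexpression arrays (SD 0.31) approached the size of the difference of -0.39 (adjusted p = 0.28 from limma). The other 7 had differences of -0.03 to 0.20. Of 13 markers of mesenchyme, fibroblasts and pericytes, Twist1, Pcolce and Acta2 had differences of -2.40, -1.98 and -1.34 and passed, and Prrx1 rose by 1.63. The median difference of these markers was 0.02. Their mean was 4.60 to 4.63 in Bmi1 overexpression arrays and 4.79 to 4.93 in empty vector arrays, and its part in the values of Foxc1 was not tested.

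Some of these genes lie side by side on the chromosome, by the gene table of GRCm38.p6, in 3 groups with neighbours within 500 kb. Foxf1, Foxc2 and Foxl1 on chromosome 8 had differences of 0.01, 0.08 and 0.20. Foxq1, Foxf2 and Foxc1 on chromosome 13 had differences of 0.09, -0.03 and -0.39, and Foxd2 and Foxe3 on chromosome 4 of -0.11 and 0.01. None of the 8 passed, and every interval held 0. The means of Foxc2 and Foxf2, 3.54 and 3.48, lay within the range of the receptor probe sets.

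Of 8 FoxB, FoxD and FoxE genes, factors of early neural tissue, neural crest and placodes, the differences were -0.11 to 0.16. Foxd3, a neural crest factor, had a difference of 0.15 (95% confidence interval -0.05 to 0.35), and Foxe1, a thyroid factor, of 0.13 (-0.11 to 0.38). The FoxA pioneer factors of endoderm and floor plate and Foxh1, a partner of Smad proteins, had differences of -0.07 to 0.01, and the second probe set of Foxf1 of 0.05. The 10 members within the range of the receptor probe sets were Foxa3, Foxc2, Foxd1, Foxf2, Foxh1, Foxn1, Foxp2, Foxr1, Sox17 and Sox30, and the arrays give little information on them.

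**Figure D3:**
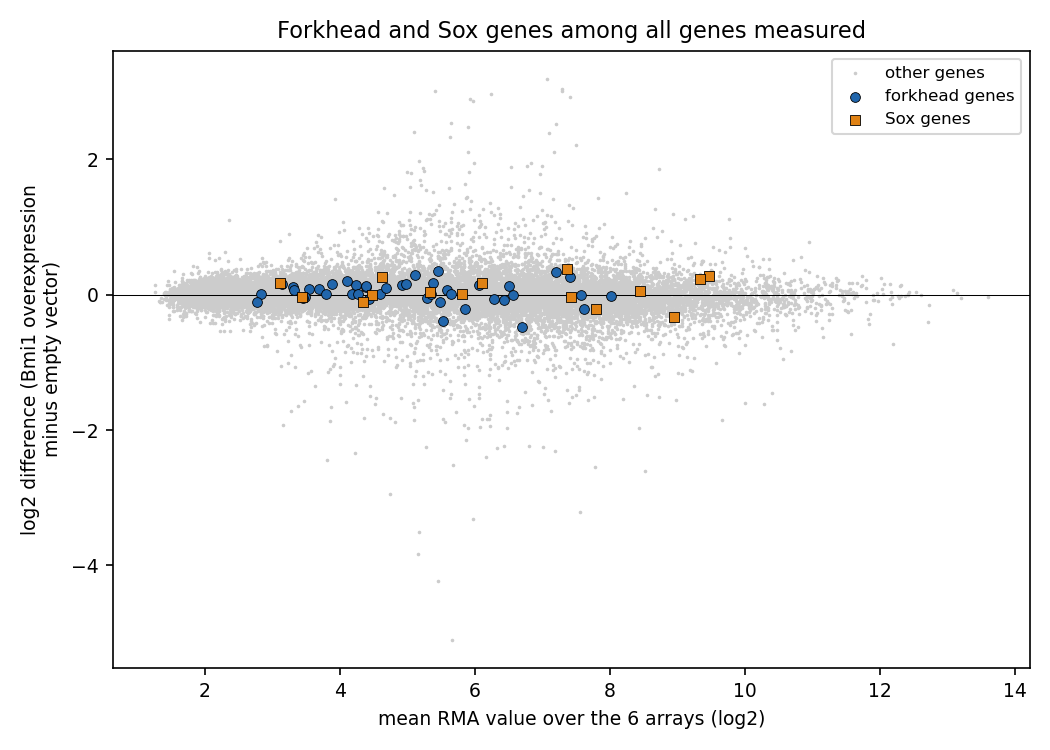
Mean RMA value over the 6 arrays (x axis, log2) and log2 difference, Bmi1 overexpression minus empty vector (y axis), of all 19938 genes with 1 probe set each. The 43 forkhead genes (blue circles) and 15 Sox genes (orange squares) lie between -0.48 and 0.37.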

How the data were processed

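RNA of 6 neurosphere samples, 300 ng each, was labelled and hybridised to 1 whole-transcript mouse array (Affymetrix Gene ST) per sample. The deposited values are log2 expression per probe set, which the authors made by RMA in Affymetrix Expression Console. No version of these steps was found in the sources used here. With 3 arrays per group, their number limits the precision. Genes were named by the platform annotation (21789 probe sets with 1 gene, 1621 with several, 12147 not named), and all 58 members matched RefSeq GRCm38.p6.

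limma 3.58.1 (R 4.3.3) compared the groups, two-sided and without a filter. P-values were adjusted by Benjamini-Hochberg across the 35557 probe sets, and a gene is said to have risen or fallen at an adjusted p below 0.05. The fit was tested on simulated data. The text names the members past the test, those of each role group whose arrays do not overlap or else the one with the highest mean, members with several probe sets or neighbouring members, and up to 4 called genes of a list. Members outside this rule, among them Sox4, Sox6, Sox21, Foxo3 and Foxk2, were named after their values were seen. The same holds for list genes that were not called, among them Hes1, Slc1a3, Aldoc, S100b, Tubb3, Txnip, Pik3cb and Ets1. The members and lists were chosen with earlier results of these data known. Alternatives were the methods' t-test, filters at a mean of 5 or 6, a value per gene, median centring or quantile normalization, changed variance priors, weighted arrays, a minimum difference, a replicate block and omission of each array. matplotlib 3.10.9 drew the figures.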

Additional observations from a re-analysis of the deposited data

How the results depend on the processing

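Counts of calls among the members were small and moved with the processing. Of forkhead genes 1 rose and 0 fell, and of Sox genes 0 rose and 1 fell. The methods' t-test with Benjamini-Hochberg adjustment called 0 forkhead genes higher, and at the thresholds of the methods it called 0 forkhead genes higher and 0 Sox genes lower, as did limma with a difference of at least 1. With a filter at a mean of 5, 3 forkhead genes rose (Foxm1, Foxn2 and Foxp1) and 2 fell (Foxj1 and Foxo1), and 1 Sox gene rose (Sox5). With a filter at 6, 2 forkhead genes rose (Foxm1 and Foxn2), 1 fell (Foxo1) and Sox5, 1 gene, rose. Foxp1 has no value there. With 1 probe set per gene, and with a gene's probe sets averaged, 2 forkhead genes rose (Foxm1 and Foxp1), 1 fell (Foxo1) and 1 Sox gene rose (Sox5). Fewer features are tested in these 4 settings. After centring on array medians, which moved the median of all probe sets by -0.05, 0 forkhead genes rose and 1 fell (Foxo1), and over all probe sets 593 rose and 1467 fell in place of 794 and 1231. Quantile normalization called Sox5 higher, 1 Sox gene, and 0 Sox genes lower, and its forkhead call was Foxm1 in place of Foxp1. With an intensity trend 3 forkhead genes rose (Foxm1, Foxn2 and Foxp1), and with the robust form 2 (Foxm1 and Foxp1), and in both 1 fell (Foxo1) and 1 Sox gene rose (Sox5). With an adjusted p under 0.1, chosen after seeing the data, 2 forkhead genes rose, 1 fell and 1 Sox gene rose. With each array left out in turn, 0 forkhead genes rose, 0 to 1 fell (Foxo1), 0 Sox genes rose and 0 fell. The cause of these changes was not tested beyond the number of features or arrays.

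With the replicate block 0 forkhead genes rose and 0 Sox genes fell, and over all probe sets 306 rose and 544 fell. Same-numbered arrays did not deviate together (correlations of 0.00, -0.03 and -0.02), and 0 of 6 arrays correlated best with their own number. These values show no pairing, but they cannot tell whether same-numbered samples shared a mouse or a day, which the labels do not say. No member without overlap changed direction in any setting, an outcome that was largely fixed in advance. Leaving out an array cannot reverse groups that do not overlap, and several settings leave the difference itself unchanged.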
